A study of Mus musculus with 5 samples.

Results

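Ion channel and calcium handling genes, 5 of the 31053 genes counted, were followed across the granulosa and mesenchymal cells of the mouse ovary. Kcne2, Kcnk3, Kcnk2, Pln and Cacna2d2 were chosen by their measured CPM in granulosa clusters, which earlier results of these same data had shown to be high in particular subtypes, so their levels are given as a description and no test was made of them. Dissociated whole ovaries of untreated C57BL6/J mice aged 2, 3, 4, 5 and 6 wk had been sorted for live cells and profiled as single cells, with 1 library for each age. There were no replicate libraries, so an age cannot be told apart from its library, and how many animals each library held is not given in the sources used here. The files held 48163 cells, between 7779 and 11077 per library, with a median of 9056 to 12424 unique molecular identifiers (UMIs, each standing for 1 captured RNA molecule) per cell. Levels are in CPM (counts per 1000000, a gene's UMIs scaled to the summed UMIs of a group of cells), and brackets give 95% intervals that cover counting error only.

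Ion channels let potassium or calcium cross a membrane and so set its voltage and the calcium inside the cell, both of which bear on how ovarian cells respond to gonadotropins. Kcnk2 (TREK-1) and Kcnk3 (TASK-1) form two-pore-domain potassium channels that carry background current, and Kcne2 is a single-span accessory subunit that changes the gating of other potassium channels. Cacna2d2 is an alpha2delta subunit that brings voltage-gated calcium channels to the surface. Pln, phospholamban, is not a channel. It is a small membrane protein that holds back the SERCA pump, which returns calcium to the endoplasmic reticulum, and it is best known from heart and smooth muscle.

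As marks of granulosa subtypes the 5 genes were not alike. Kcne2, Pln and Cacna2d2 had most of their UMIs in granulosa-like cells, 86.9%, 79.2% and 78.9% respectively, where that class held 50.3% of all UMIs. Kcnk2 had 20.8% of its UMIs there and 54.8% in stromal cells, and Kcnk3 had 29.0% there and 36.2% in theca cells. For Kcnk2 and Kcnk3 the name of a granulosa mark therefore held only within the granulosa lineage.

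Detection was sparse for all but Kcnk2. Kcnk2 had 54064 UMIs in 18212 cells, 37.8% of all cells. Kcnk3 had 5348 UMIs in 2563 cells, Pln 4721 in 2364 cells, Cacna2d2 2184 in 1625 cells and Kcne2 only 654 in 345 cells. Of the cells with Kcne2, 230 held a single UMI, and the 10 cells with the most held 16.97% of all its UMIs. Kcne2 levels thus rest on few cells.

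Granulosa-like cells were clustered into 17 clusters and mesenchymal cells (stromal, smooth muscle and theca) into 21, numbered here by size. Clusters were grouped into primordial, primary, secondary, antral, remodeling and mitotic granulosa cells by marker genes and by the published cluster whose profile each resembled most, so these names follow the study and are no independent identification. Remodeling is the study's term for the granulosa cells of early-growing follicles that lose their oocytes and break down. For 3 clusters the 2 sources disagreed and the published profile was kept. Granulosa 0, called primary here, carried the primordial markers Gatm, Col18a1 and Rspo1, granulosa 2, called antral, carried remodeling markers, and mesenchymal 7, called Col11a1+, carried those of Cxcl12+ cells. Mitotic markers were put before the profile, so granulosa 11 was called mitotic though it resembled a published secondary cluster most (r = 0.88). Granulosa 3 and 7 and mesenchymal 5 and 6 were named from the profile alone. Granulosa 7, called antral, was led by the mitosis genes Ccnb2, Cenpa and Birc5, and granulosa 3, called secondary, by DNA replication genes. All members but Cacna2d2 were among the 2000 genes used for clustering.

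Where the genes lie bears on how their reads are counted. In GENCODE vM21 (GRCm38), Kcne2 (ENSMUSG00000039672) lies at chr16:92292389-92298129 on the plus strand and overlaps no other gene. Kcnk3 (ENSMUSG00000049265) lies at chr5:30588170-30625271, plus strand, and its start overlaps Gm9899 on the other strand. Kcnk2 (ENSMUSG00000037624) lies at chr1:189207930-189402273 on the minus strand and contains 2900042K21Rik and the pseudogene Pdcd5-ps on its own strand, and A430027H14Rik and Gm24092 on the other. Pln (ENSMUSG00000038583) lies at chr10:53337667-53345987, plus strand, within Cep85l and over Gm47644, both on the other strand. Cacna2d2 (ENSMUSG00000010066) lies at chr9:107399612-107529343, plus strand, with Gm17141 and Gm17118 antisense to it. The counting, by Cell Ranger at its default settings, takes reads on a gene's own strand. Same-strand overlaps, here those within Kcnk2, could leave a value uncertain if the overlapping features were counted too. Whether they were in the annotation used for counting was not checked.

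Upstream sequence from RefSeq (GRCm38.p6) was found for 4 of the 5 members. The windows of Kcne2 and Pln are shown as examples, since these members set apart the aromatase-rich antral and the primary cells. Capitals mark TGACG, the core of the cyclic AMP response element, in Kcne2, and the TATA box letters TATAAA in Pln, with CGTCA being TGACG read on the other strand. The Kcne2 window is chr16:92292139-92292388 and the Pln window chr10:53337436-53337666, both on the plus strand and ending at the base before the gene.
Kcne2: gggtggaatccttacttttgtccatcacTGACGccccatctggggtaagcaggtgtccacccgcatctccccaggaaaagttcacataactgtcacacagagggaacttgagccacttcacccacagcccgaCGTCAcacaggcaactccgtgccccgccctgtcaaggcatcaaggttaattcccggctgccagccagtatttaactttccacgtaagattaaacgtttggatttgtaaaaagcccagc
Pln: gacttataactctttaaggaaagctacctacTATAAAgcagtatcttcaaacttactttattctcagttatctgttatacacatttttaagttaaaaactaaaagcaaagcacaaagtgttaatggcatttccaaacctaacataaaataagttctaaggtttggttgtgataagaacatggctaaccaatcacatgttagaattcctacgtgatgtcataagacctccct

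TGACG occurred 2 times in the 250 bases of Kcne2, and 17.8% of 32851 upstream windows of that length held it at least once on either strand. The matches begin 222 and 118 bases before the end of the window. TATAAA occurred 1 time in the 231 bases of Pln, beginning 200 bases before their end and so not next to the gene start. Of windows of that length 11.8% held it. TGACG was not found in the Pln window (16.0% of windows of that length held it) nor TATAAA in the Kcne2 window (12.4%). AAGGTCA, the letters bound by NR5A factors, and GTAAACA, those bound by forkhead factors, were in neither window. Of all windows of the Kcne2 length 4.08% held AAGGTCA and 3.17% held GTAAACA. A match is a description of letters and no evidence of binding.

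Kcne2 was at its highest in 1 antral cluster. Granulosa 10 (820 cells), led by Cyp19a1, the aromatase that makes estradiol, and by Cyp11a1 and Inhba, held 37.2% of all Kcne2 UMIs with 2.14% of all UMIs in the data. Its Kcne2 level was 7.83 CPM at 2 wk (3.75 to 14.4), 14.01 at 3 wk (9.06 to 20.7), 0 at 4 wk (3 counts would give 1.62), 24.1 at 5 wk (17.7 to 31.9) and 28.3 at 6 wk (24.1 to 33.1). Kcne2 was thus present in 4 of the 5 libraries and was not detected in the 145 cells of the 4 wk library. The share of these cells with a Kcne2 UMI was 8.05% at 2 wk, 9.85% at 3 wk, 20.3% at 5 wk and 15.2% at 6 wk.

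Some but not all of the genes that define the cluster were lowest at 4 wk. Cyp19a1 in granulosa 10 was 142 CPM at 2 wk, 40.3 at 3 wk, 12.96 at 4 wk, 141 at 5 wk and 115 at 6 wk. Inhba, the activin and inhibin A subunit, was lowest at 4 wk too, at 827 CPM against 1397 to 5885 in the other libraries. Lhcgr, the luteinizing hormone receptor, was 150 CPM at 2 wk, 7.84 at 3 wk, 0 at 4 wk, 6.02 at 5 wk and 8.49 at 6 wk. Fst, the activin-binding follistatin, had no such gap, at 394, 750, 639, 936 and 1346.5 CPM. The part of cell makeup in the absence of Kcne2 UMIs at 4 wk was not tested.

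**Figure D1:**
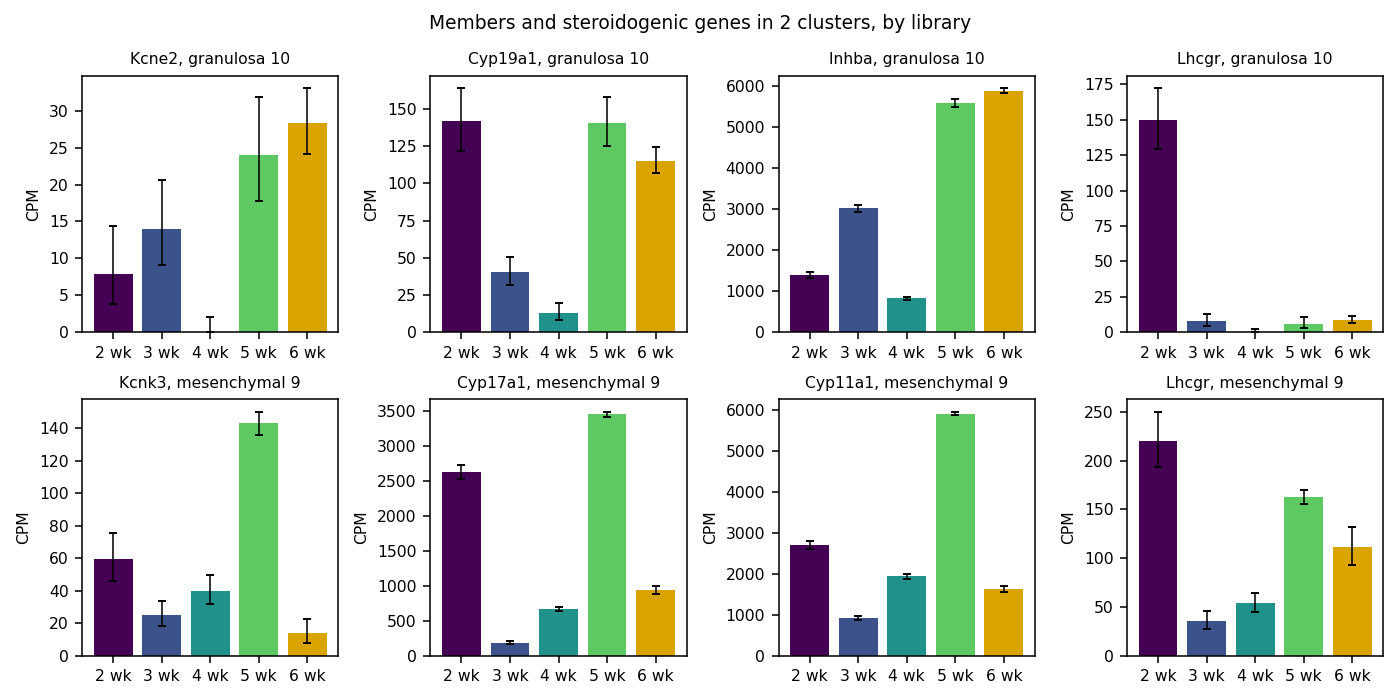
Level of a member and of 3 marker genes in 2 steroidogenic clusters, in CPM on linear axes starting at 0, with 1 bar per library and exact 95% Poisson intervals. Top, Kcne2, Cyp19a1, Inhba and Lhcgr in granulosa 10, where Kcne2 is at 0 at 4 wk and reaches 28.3 CPM at 6 wk. Bottom, Kcnk3, Cyp17a1, Cyp11a1 and Lhcgr in mesenchymal 9, where Kcnk3 reaches 143 CPM at 5 wk.

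Kcne2 was not confined to that cluster. Over the antral group it was 2.93, 3.87, 0, 5.61 and 8.71 CPM from 2 to 6 wk. Over the secondary group it was 0.283, 0.579, 0.153, 0 and 3.94 CPM, with the 6 wk value well above the rest. In granulosa 3, a secondary cluster led by DNA replication genes, Kcne2 reached 6.79 CPM at 6 wk. Mitotic granulosa cells held 0.741, 2.33, 0.503, 3.54 and 4.34 CPM. At the other end, Kcne2 had 0 UMIs in the 821 primordial cells and 1 in the 2424 primary cells.

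Outside granulosa 10, cells with Kcne2 were higher in Cyp19a1 and in a proliferation gene than cells without, with all libraries and stages pooled. The 196 granulosa-like cells outside the cluster with at least 1 Kcne2 UMI had 91.2 CPM of Cyp19a1, against 7.15 CPM in the 17063 without, and 38.8% against 5.35% of them held a Cyp19a1 UMI. Inhba was 2222 against 240 CPM. These cells were also deeper, with a median of 21760 against 14850 UMIs, and richer in the proliferation gene Mki67, at 307 against 113 CPM. In granulosa 10 Mki67 was 10.5 CPM in cells with Kcne2 and 6.73 in those without, and Inhba was 5439 and 4037 CPM. Mki67 was 3.49 CPM in the 30 of its cells with at least 3 Kcne2 UMIs. Depth alone raises a share of cells with a UMI, and its part here was not tested, while CPM is scaled to depth. Within granulosa 10 the difference was small, with 106 CPM of Cyp19a1 in the 96 cells with Kcne2 and 94.8 CPM in the 724 without. All 145 cells of the 4 wk library are among those without. The cells with and without Kcne2 were not matched for stage or library, and the part of these was not tested.

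In the named classes outside granulosa cells Kcne2 UMIs were few. Mesenchymal cells held 11 Kcne2 UMIs in all and hematopoietic cells, which should lack it, held none. Pericytes held 16 UMIs, of which 15 came from 2 cells at 6 wk. Cells left unnamed in the first clustering, some of them with granulosa markers, held 18 UMIs at 5 wk (3.47 CPM) and 27 at 6 wk (2.21 CPM).

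Kcnk3 marked remodeling granulosa cells as a group, while late theca cells, a mesenchymal group, were higher in some libraries and lower in others. Late theca cells held 30.6, 14.4, 29.1, 118 and 7.25 CPM from 2 to 6 wk, below the remodeling group at 3 and 6 wk. In the remodeling group Kcnk3 was 1.85 CPM at 2 wk and 26.7, 20.3, 18.99 and 18.4 at 3 to 6 wk. In the antral group it was 1.28, 5.21, 7.25, 6.36 and 5.04 CPM. From 3 wk on every remodeling value was above every antral value, and at 2 wk the remodeling value rested on 2 UMIs and the antral value on 7. Secondary cells held 0.0945, 0.985, 3.07, 3.17 and 1.88 CPM, and primordial and primary cells at most 2.02 CPM in any library.

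Among granulosa clusters Kcnk3 was highest in granulosa 6, led by S100a6, Hspb1 and Tagln, at 56.6, 38.8, 24.8 and 25.3 CPM from 3 to 6 wk. Only 10 cells of this cluster came from the 2 wk library. Granulosa 12, led by Pamr1 and Bicc1, followed at 1.03, 13.3, 23.1, 30.5 and 30.5 CPM from 2 to 6 wk, which overlaps with granulosa 6. Among named clusters granulosa 10 came next with 8.84 CPM over all libraries. Granulosa 5, the other remodeling cluster, held 3.91 CPM, less than the 5.65 CPM of the antral group.

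Over all libraries Kcnk3 was highest in mesenchymal 9, a late theca cluster of 903 cells led by Cyp17a1, the androgen-forming enzyme, and Cyp11a1. Kcnk3 there was 59.4 CPM at 2 wk (45.9 to 75.8), 24.96 at 3 wk (18.2 to 33.4), 39.9 at 4 wk (31.8 to 49.4), 143 at 5 wk (136 to 150) and 13.8 at 6 wk (7.87 to 22.4). The 5 wk library gave 488 of the cluster's cells and 1573 of its 1783 Kcnk3 UMIs, and the 6 wk library 53 cells. The median over libraries was 39.9 CPM, under the 46.6 CPM of mesenchymal 8, a smooth muscle-like cluster. In mesenchymal 9 Kcnk3 differed by a ratio of 0.0963 (0.0549 to 0.157) from 5 to 6 wk. Cyp17a1 went the same way, from 3462 to 938 CPM, as did Cyp11a1, from 5920 to 1623 CPM, and Mgarp, from 1205 to 389 CPM. Lhcgr went from 163 to 111 CPM. Over all ages the courses differed, since Kcnk3 was lowest at 6 wk and the others at 3 wk. At 3 wk Cyp17a1 was 184, Cyp11a1 924, Mgarp 158 and Lhcgr 35.5 CPM. Mesenchymal 11, the other late theca cluster, held only 11.5, 4.93, 14.4, 5.43 and 3.48 CPM of Kcnk3, below mesenchymal 9 in every library.

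Smooth muscle-like cells held Kcnk3 as well. Mesenchymal 8, led by Cnn1, Actg2 and Myoc, had 24.5, 20.4, 52.1, 46.6 and 47.0 CPM from 2 to 6 wk. The whole Tagln+ group had 15.1, 8.56, 32.1, 29.7 and 26.4 CPM, and pericytes 40.6, 44.1, 37.0, 22.3 and 32.5 CPM. Pericytes had no low library at 2 wk, unlike the remodeling granulosa cells.

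Late and early theca cells differed in opposite ways for the 2 potassium channels. Kcnk3 in late theca was 30.6, 14.4, 29.1, 118 and 7.25 CPM and in early theca 1.56, 1.65, 6.46, 5.21 and 1.19 CPM, a late over early ratio of 4.51 to 22.7 within libraries. Kcnk2 was 14.6, 12.01, 22.0, 4.93 and 14.2 CPM in late and 57.0, 125, 117, 98.3 and 152 CPM in early theca, a ratio of 0.0501 to 0.256. The values of the 2 groups did not overlap for either gene, and how many of all genes do the same was not counted. In mesenchymal 11 alone, the late theca cluster with less Kcnk3, this gene was 3.48 to 14.4 CPM, which overlaps early theca. A gene was called where it was at least 2-fold apart the same way in every library whose counts could show it, and in at least 3 libraries. By this rule 1 member was higher and 1 lower in late theca, and of 10215 genes with at least 200 UMIs 2.91% were called higher and 2.95% lower.

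**Figure D2:**
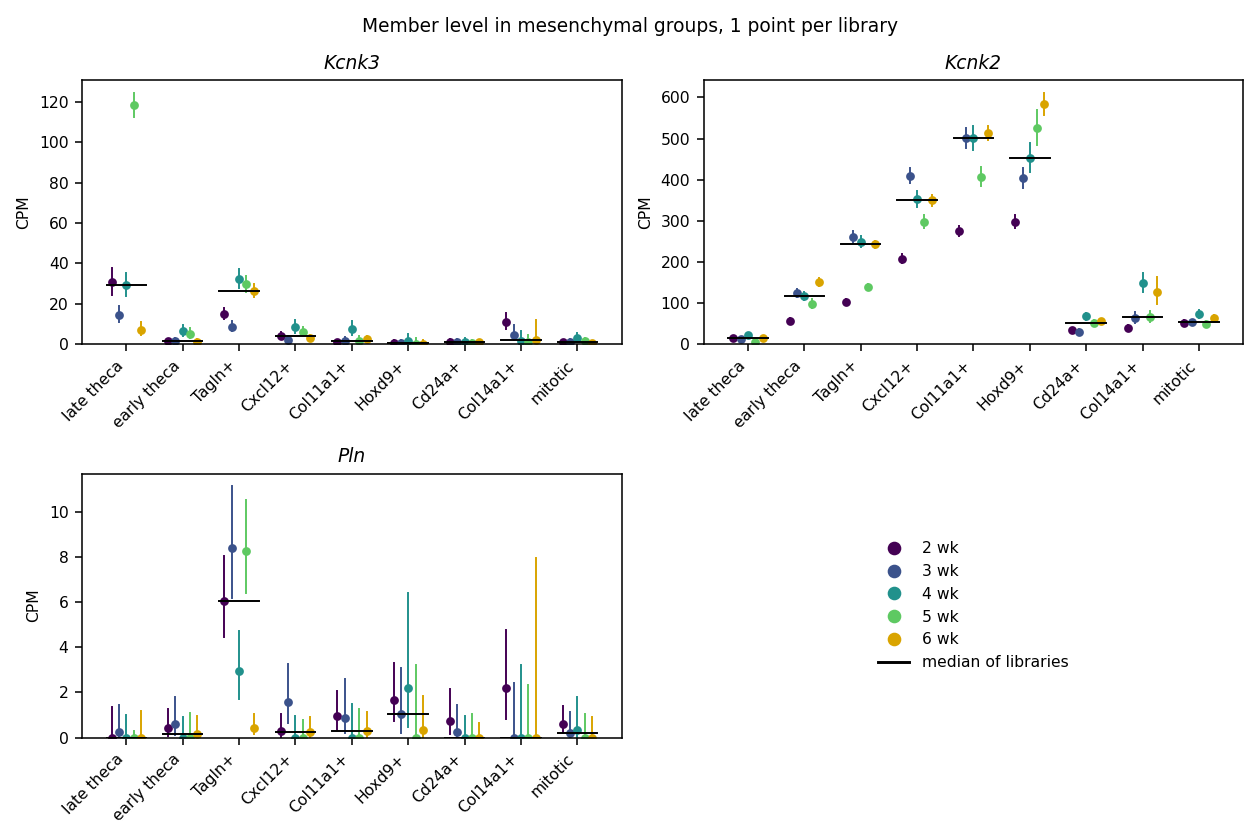
Kcnk3, Kcnk2 and Pln level (CPM, linear axes starting at 0) in the mesenchymal groups, with 1 point per library with at least 20 cells, exact 95% Poisson intervals and a black line at the median of the libraries. Kcnk3 is highest in late theca at 5 wk (118 CPM), Kcnk2 in the Col11a1+ and Hoxd9+ groups (275 to 584 CPM) and Pln is low in every group, with pericytes and granulosa cells not shown.

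Kcnk2 was about as high in stromal as in smooth muscle cells, at 191 and 195 CPM over all libraries. In the Hoxd9+ group it was 298, 404, 453, 525 and 584 CPM from 2 to 6 wk, in the Col11a1+ group 275, 502, 501, 408 and 514, and in the Cxcl12+ group 208, 410, 353, 297 and 350. These 3 groups overlapped with each other. In every library the Tagln+ group was lower, at 102 to 261 CPM, early theca lower again and the Cd24a+ group lowest of these, at 29.9 to 67.4 CPM. Single clusters did not follow that order. The Tagln+ clusters mesenchymal 13 and 0 had medians over libraries of 359 and 308 CPM, above the 225 CPM of mesenchymal 3, a Cxcl12+ cluster.

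Within granulosa cells Kcnk2 set 1 remodeling cluster apart. Granulosa 5, led by Pamr1, Cald1 and Lox, had 346, 238, 175 and 223 CPM of Kcnk2 from 3 to 6 wk and no cells at 2 wk. A Kcnk2 UMI was found in 82.1% of its cells. Its lowest library, 175 CPM, was above the highest of the next cluster, granulosa 12, at 110 CPM. Such a gap between the top cluster and the next was seen for no other member among granulosa clusters. How many of all genes show such a gap was not counted. The size of the gap for Kcnk2 depended on the clustering. Over all libraries, clustering without the 5 members gave a remodeling cluster with 219.9 CPM and a next one with 76.3 CPM. At resolution 0.6 a single remodeling cluster of 3019 cells held 123 CPM, against 61.2 CPM in the next. Without integration the top cluster was unnamed, at 130.5 CPM, and the next held 105 CPM.

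Granulosa 5 and granulosa 6 differed in both potassium channels. In granulosa 6 Kcnk2 was 78.2, 70.3, 43.9 and 65.5 CPM from 3 to 6 wk, lower than in granulosa 5 in each library, with ratios of 5 over 6 between 3.38 and 4.43. For Kcnk3 the ratio was 0.0893 to 0.235. Pln was lower in granulosa 5 as well, with 7 against 59 UMIs. In this comparison 1 member was called higher and 2 lower, and of 9400 genes 1.21% were called higher and 1.24% lower. Members were counted without the 200 UMI minimum, and Pln was below it.

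Cells holding both channels were few. After thinning every cell to 5000 UMIs, 146 of 1205 granulosa 6 cells held Kcnk3 and 284 held Kcnk2, with 28 holding both. Kcnk2 was found in 19.2% of cells with Kcnk3 and 24.2% of cells without. In granulosa 10 it was found in 6.67% and 4.91%, on 2 cells with both. In mesenchymal 8, 23.3% of cells with Kcnk3 and 30.1% of those without held Kcnk2.

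**Figure D3:**
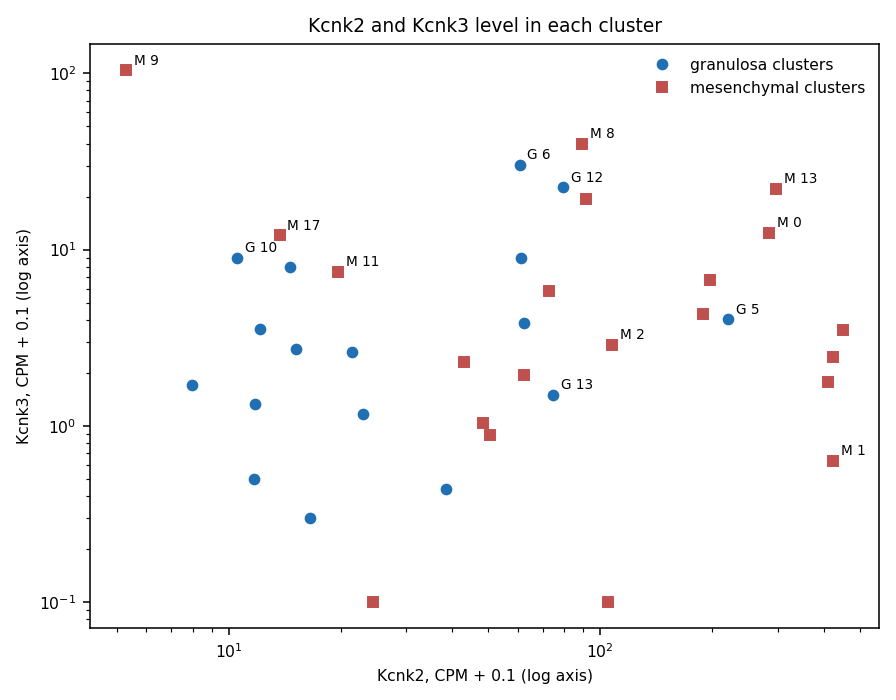
Kcnk2 against Kcnk3 level in each of the 17 granulosa clusters (circles, G) and 21 mesenchymal clusters (squares, M), over all libraries, in CPM plus 0.1 on log axes. Granulosa 5 lies far right with 220 CPM of Kcnk2 and 3.91 of Kcnk3, granulosa 6 higher up with 30.004 CPM of Kcnk3, and mesenchymal 9 at the top with 104 CPM of Kcnk3 and 5.18 of Kcnk2.

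Part of the granulosa level of Kcnk2 was no higher than in cells taken as background. Hematopoietic cells, the class for background, held 24.6, 5.05, 55.7, 10.2 and 45.1 CPM from 2 to 6 wk. The primary group (2.81 to 24.97 CPM), the secondary group (5.57 to 31.8 CPM) and the mitotic group (12.2 CPM over all libraries) lay within or under that range. Within the same library the primary and secondary groups were under the hematopoietic value at 2, 4 and 6 wk but over it at 3 wk (14.3 and 22.9 CPM) and at 5 wk (20.5 and 18.6 CPM), where it rested on 2 and 14 UMIs. The antral group, at 8.79, 37.0, 50.8, 36.2 and 40.4 CPM, was likewise under the hematopoietic value at 2, 4 and 6 wk and over it at 3 and 5 wk. Remodeling cells, at 20.4, 109, 154, 88.5 and 126 CPM, were above the hematopoietic value from 3 wk on. Primordial cells held 23.6, 56.6, 68.5, 34.8 and 33.6 CPM, above the primary cells of the same library in all 5 libraries.

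An antisense gene was high in clusters that were high in Kcnk2. A430027H14Rik lies at chr1:189343431-189344897 on the plus strand and spans 3 of the 10 annotated Kcnk2 transcript starts. It was 3.33 CPM in stromal and 3.85 in smooth muscle cells, 0.772 in granulosa-like and 0.113 in theca cells. In granulosa 5 it was 4.72 CPM and in mesenchymal 7 it was 9.92 CPM. It stood second among genes whose pattern over the 17 granulosa clusters was most like that of Kcnk2 (Pearson r = 0.96) and the fifth over the 21 mesenchymal clusters (0.93).

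Remodeling and antral cells were compared as groups. Kcnk2 was higher in remodeling cells by 2.32, 2.96, 3.03, 2.44 and 3.13-fold from 2 to 6 wk. Kcnk3 was higher by 1.45-fold at 2 wk, on the 9 UMIs given above, and by 2.80 to 5.13-fold later. Kcne2 was lower, with 15 against 276 UMIs and a ratio of 0.0796 (0.0440 to 0.134). Cacna2d2 did not differ beyond counting error (0.887, 0.601 to 1.30). Pln was 7.12-fold higher at 2 wk and 8.75-fold at 3 wk but 1.05 to 2.48-fold after. The remodeling group at 2 wk was only 86 cells of granulosa 12 and 10 of granulosa 6. By the call rule 1 member (Kcnk2) was higher and 1 (Kcne2) lower, where 1.99% of 11160 genes were called higher and 0.681% lower. The genes were chosen for such differences, so nothing is read from the counts. The count of 2 became 1 where cells were clustered without the 5 members and 0 where libraries were not integrated, and without granulosa 2 the Kcnk2 ratio was 5.01 in place of 3.095.

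Antral cells were also set against secondary cells. Pln was lower in antral cells in each library, at 4.94, 1.34, 0.659, 1.31 and 0.815 CPM against 36.2, 17.8, 4.14, 5.55 and 7.60. Cacna2d2 was lower too, at 2.93, 2.67, 0.710, 0.936 and 0.815 CPM against 10.6, 8.05, 4.14, 3.28 and 5.00. Kcne2 and Kcnk3 were higher, by ratios of 3.98 (3.11 to 5.14) and 3.67 (2.98 to 4.56) over all libraries. For Kcne2 this was 10.3 at 2 wk, 6.69 at 3 wk and 2.21 at 6 wk, with 60 UMIs against 0 at 5 wk and 0 against 2 at 4 wk. The 6 wk library gave 67 of the 85 secondary UMIs, and without it the ratio was 8.115. Kcnk2 was 2.17-fold higher over all libraries but 1.58 to 2.08-fold within them. In all 2 members were called higher and 2 lower, where 0.553% of 11563 genes were called higher and 2.14% lower. The 4 calls became 2 with clustering without the members, at resolution 0.6 or with stricter cell limits, and 1 without integration.

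**Figure D4:**
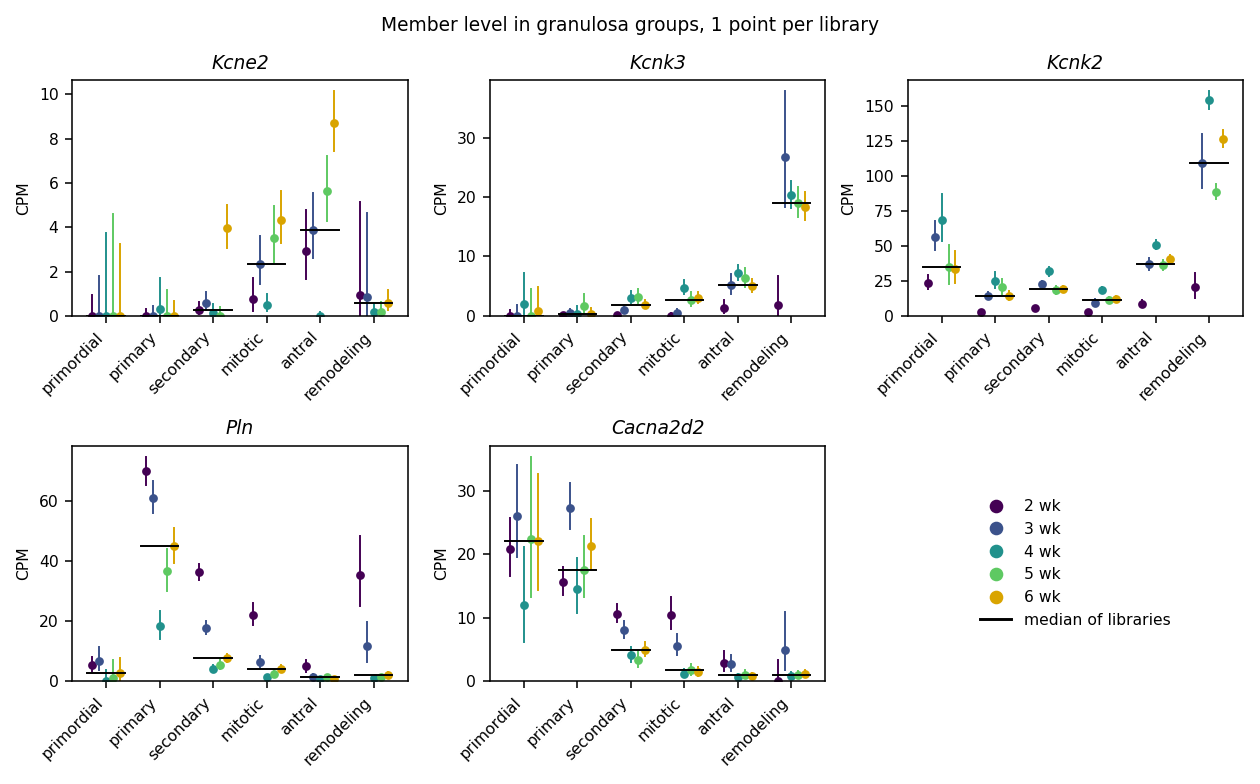
Level of the 5 members (CPM, linear axes starting at 0) in the granulosa groups, with 1 point per library with at least 20 cells, exact 95% Poisson intervals and a black line at the median of the libraries. Cacna2d2 is highest in primordial and primary, Pln in primary, Kcne2 in antral, and Kcnk3 and Kcnk2 in remodeling cells. The 2 wk points of remodeling cells are low for both potassium channels. Those points rest on 86 cells of granulosa 12 and 10 of granulosa 6.

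Pln separated granulosa 0, called primary, from granulosa 9, called primordial. In the primary group (granulosa 0) it was 69.8, 61.0, 18.3, 36.5 and 44.9 CPM from 2 to 6 wk. In the primordial group (granulosa 9) it was 5.32, 6.89, 0, 1.24 and 2.66 CPM, so that the lowest primary value was above the highest primordial one. The ratio over all libraries was 12.6 (9.16 to 17.7). Pln was the only member called higher in primary cells and no member was called lower, where 0.589% of 9846 genes were called higher and 1.93% lower. The comparison rests on the name of granulosa 0, and no published primordial profile was among those matched. With marker names kept over the matched profile, granulosa 0, at 55.0 CPM of Pln over all libraries, was called primordial as well. This limit holds for every comparison of primary with primordial cells here.

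Secondary cells kept less Pln, at 36.2, 17.8, 4.14, 5.55 and 7.60 CPM. Remodeling cells held 35.2 CPM at 2 wk, on 38 UMIs, 11.7 at 3 wk and 1.08 to 2.03 CPM later. At 2 wk this group consisted of 86 cells of granulosa 12 and 10 of granulosa 6. In granulosa 12 Pln was 30.9 CPM at 2 wk but 0.591 at 4 wk and 0.609 at 5 wk. The group's 2 wk value was near that of secondary cells, and whether the remodeling name holds for these cells was not tested.

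A small cluster held 146 of the 289 Pln UMIs in mesenchymal cells. Mesenchymal 17 (277 cells), a Tagln+ cluster led by Pcp4, Cnn1 and Des, held 32.2, 50.5, 24.4 and 99.3 CPM from 2 to 5 wk and 0 in the 9 cells of 6 wk. Of the rest, 39 UMIs lay in the unnamed mesenchymal 16, of which 45.5% of cells were called doublets, and 32 in mesenchymal 8. No named mesenchymal group other than Tagln+ had more than 1.14 CPM over all libraries. Pericytes held 44.6, 81.2, 48.2, 67.3 and 19.4 CPM of Pln. The pericyte markers Rgs5 and Notch3 were 1.33 and 0.995 CPM in mesenchymal 17 against 2901 and 471 in pericytes, so the cluster lacked them.

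Cacna2d2 did not separate primordial from primary cells. It was 20.8, 26.1, 12.1, 22.4 and 22.1 CPM in primordial and 15.7, 27.4, 14.6, 17.6 and 21.3 CPM in primary cells. The ratio of primary over primordial was 0.923 (0.784 to 1.09). Both groups were above the secondary group of the same library in every library. Over all libraries Cacna2d2 was 1.03 CPM in mesenchymal and 0.235 CPM in hematopoietic cells. It was 21.3 CPM in primordial, 19.7 in primary and 6.88 in secondary cells. In antral (1.21 CPM) and remodeling cells (1.07 CPM) it was close to the mesenchymal level. The part of background in these values was not tested.

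Cacna2d2 and Pln shared a cluster but not cells in particular. In granulosa 0, thinned to 5000 UMIs per cell, 423 of 2387 cells held Pln, 205 held Cacna2d2 and 42 held both. Pln was found in 20.5% of cells with Cacna2d2 and 17.5% of those without.

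Granulosa-like cells as a class were then set against mesenchymal cells. Kcne2 was 39.0-fold higher (21.6 to 78.6), Pln 9.77-fold (8.66 to 11.05) and Cacna2d2 5.69-fold (4.95 to 6.55). The Kcne2 ratio rested on 11 mesenchymal UMIs and was 22.6 without the 6 wk library and 65.4 without the 5 wk library. Kcnk2 was lower in every library, with ratios of 0.0618 to 0.344. Kcnk3 was lower in each library as well but by ratios as near to 1 as 0.780. In all 3 members were called higher and 1 lower, where 7.71% of 14242 genes were called higher and 11.2% lower.

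Granulosa-like cells as a class differed between ages in all 5 genes. From 2 to 6 wk Pln was 35.5, 19.5, 2.41, 4.74 and 6.44 CPM and Cacna2d2 11.6, 10.6, 2.26, 3.04 and 3.83 CPM, both lowest at 4 wk. Kcnk2 was 7.48, 25.5, 61.1, 39.9 and 44.7 CPM and Kcnk3 0.732, 2.17, 8.42, 7.56 and 6.00 CPM, both highest at 4 wk. Kcne2 was 0.659, 1.43, 0.275, 2.37 and 4.50 CPM. At 5 wk against 2 wk, 3 members were called higher and 2 lower by a 2-fold difference, where 4.77% of 11380 genes were called higher and 4.89% lower.

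The makeup of the class moved with age too. Primary cells were 753 of 3082 granulosa-like cells at 2 wk and 370 of 5201 at 4 wk, and primordial cells 317 and 129. The remodeling group held no granulosa 5 cells at 2 wk and 20, 651, 261 and 312 of them from 3 to 6 wk. Within granulosa 5 and within granulosa 6 Kcnk2 was highest at 3 wk, while in the remodeling group it was highest at 4 wk. The libraries of 2 to 4 wk were counted with another version of Cell Ranger than those of 5 and 6 wk, so that version and age cannot be told apart between them.

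Values within a group show how much remained at fixed names. Within primary cells Cacna2d2 at 5 wk over 2 wk was 1.12 (0.815 to 1.52), against 0.263 (0.217 to 0.316) over the class. Pln within primary cells was 0.523 (0.426 to 0.636), against 0.134 (0.116 to 0.154) over the class. Within secondary cells Pln was 0.153 (0.112 to 0.204) and Cacna2d2 0.309 (0.202 to 0.456).

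Within antral cells Kcnk3 was 4.96-fold higher at 5 wk (2.28 to 12.8), Kcnk2 4.12-fold (3.05 to 5.68) and Kcne2 1.92-fold (1.09 to 3.56). Pln was lower, at 0.265, on 14 and 27 UMIs, and Cacna2d2 at 0.319, on 10 and 16 UMIs. Hematopoietic cells held 2.81 CPM of Kcnk3 over all libraries, above the 1.28 CPM of antral cells at 2 wk. At 2 wk they held 6.57 CPM of Pln, on 4 UMIs, against 4.94 CPM in antral cells. The part of background in these age ratios was not tested. Of the members 2 were called higher and 2 lower, where 3.47% of 7375 genes were called higher and 2.97% lower. Members were counted without the 200 UMI minimum, and Kcnk3, Pln and Cacna2d2 had 75, 41 and 26 UMIs in both libraries together. Without integration the calls were 2, and the ratios of Kcnk3 and Kcne2 turned, to 0.336 and 0.227. The ratio of Pln was then 0.0526 and that of Cacna2d2 0.0399.

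In mesenchymal cells Kcnk3 was 7.78-fold higher at 5 wk (6.89 to 8.80), with the late theca cluster giving 1573 of its 1951 UMIs. Kcnk2 hardly differed, at 0.958 (0.924 to 0.993). Cacna2d2 was lower, at 0.388 (0.247 to 0.595), and Kcne2 had 6 UMIs against 0. In mesenchymal cells 2 members were called higher and 1 lower, where 5.15% of 11699 genes with at least 200 UMIs were called higher and 3.25% lower. The Kcne2 call rests on those 6 UMIs and Cacna2d2 had 121, both under that minimum. These age comparisons share the same 2 libraries.

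**Figure D5:**
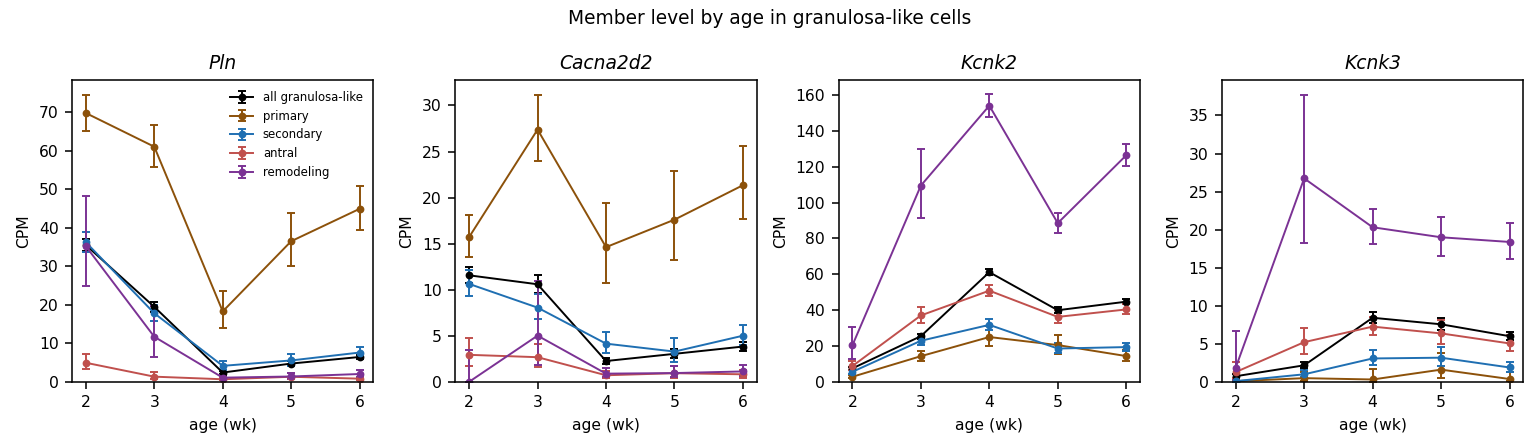
Level of Pln, Cacna2d2, Kcnk2 and Kcnk3 (CPM, linear axes starting at 0) against age in wk, in all granulosa-like cells and in the primary, secondary, antral and remodeling groups, with exact 95% Poisson intervals and 1 library per age. In the class as a whole Pln is 35.5 CPM in the 2 wk and 2.41 CPM in the 4 wk library while primary cells still hold 18.3 CPM at 4 wk. Kcnk2 in the remodeling group is highest at 4 wk (154 CPM), but the clusters that make up this group differ in share between ages.

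The genes most like each member over the 17 granulosa clusters, of 12899 compared by Pearson r of the cluster levels, were as follows. Rhox5 (0.93), Ppt2 and Hao2 were most like Kcne2. Angptl2 (0.92), Gprc5b and Agt, the angiotensin precursor, were most like Kcnk3. Syne1 (0.96), the antisense gene and Lrrk1 were most like Kcnk2. Gtf2a1 (0.95), Espn and Gm31659 were most like Pln, and Glb1l3 (0.96), Cdon and Lrp4 most like Cacna2d2. Over the 21 mesenchymal clusters Aoc3 (0.91) was most like Kcnk3, Clec1a (0.96) most like Kcnk2 and Scx (0.93) most like Pln. Clusters share libraries and depth, and 4 of the members helped to form them.

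Relatives of the members showed where each stood in its family. Of the 12 other two-pore potassium channels 2 had enough UMIs between remodeling and antral and between antral and secondary cells, and 0 were called in either. Between granulosa-like and mesenchymal cells 3 had enough, of which Kcnk1 was called higher and Kcnk6 lower. Kcnk1 was 40.6 CPM in granulosa-like and 10.8 in mesenchymal cells, the reverse of Kcnk2, and differed little between antral (45.6 CPM) and remodeling (42.2 CPM) cells.

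Of the 18 other KCNE subunits and channel partners, 9 had enough UMIs between antral and secondary cells. Kcnq1, a voltage-gated partner of KCNE subunits, was called lower, at 0.397 CPM in antral against 5.43 in secondary cells. Outside that comparison it was 31.2 CPM in primordial and 16.6 in primary cells. Kcne3 was 52.2 CPM in primordial cells, where Kcne2 was at 0.

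Of the 18 other SERCA pumps, regulators and store channels, 9 were compared in the granulosa stages and 0 were called. Atp2a2, the SERCA pump that phospholamban binds, was 135 CPM in granulosa-like and 133 in mesenchymal cells, 133 in primary and 118 in primordial cells, where Pln differed 12.6-fold. Ryr3, a calcium release channel, was 35.5 CPM in mesenchymal 17.

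Of the 21 other voltage-gated calcium channel subunits, 16 were compared between granulosa-like and mesenchymal cells, and 0 were called higher and 9 lower, against Cacna2d2 which was higher. Their median log2 ratio was -1.86, against 0.16 for all genes. Cacna1a, a pore subunit, was 34.96 CPM in secondary, 13.4 in antral and 4.88 in remodeling cells. Cacna1d was 23.5 CPM in primary and Cacna1h 21.6 CPM in primordial cells, the 2 groups with the most Cacna2d2. Cacna2d1, a paralog of Cacna2d2, was 25.8 CPM in granulosa-like and 41.5 in mesenchymal cells, and 90.9 in mesenchymal 17.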

How the data were processed

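The authors made 10x Genomics 3′ v3.1 libraries from trypsin-dissociated ovaries and deposited UMI counts per gene and cell, made with Cell Ranger 3.1.0 (2 to 4 wk) or 6.0.1 (5 and 6 wk). Per the labels, Seurat 4.1.0 was used downstream. The deposited counts were used as they were, and no cell was removed before the first clustering. Cells of the 5 libraries were integrated and clustered with Seurat 5.3.0 (R 4.3.3; 2000 variable genes, 30 of 50 principal components, resolution 1), and granulosa-like and mesenchymal cells were clustered again. Scrublet, run through scanpy 1.11.5, marked 162 to 555 cells per library as doublets, which were kept in the main values and left out in an alternative. In the first clustering, clusters of 2735, 2140 and 1468 cells stayed unnamed for low UMIs per cell. A cluster of 1199 cells stayed unnamed for doublets (66.3%), and clusters of 508 and 20 cells for few markers or few cells. The clusters of 2735 and 2140 cells carried granulosa markers. Cells left unnamed at this step entered no granulosa or mesenchymal group. In the second clustering, clusters with at least 25% doublets, under 30 cells, over 90% from 1 library or leading genes of another type stayed unnamed. The clusters were known when these limits were chosen, and a name needed 3 markers or a profile correlation of 0.7 with a published cluster. Of 47890 distinct barcodes 273 occurred in 2 libraries.

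UMIs were summed per library and group and divided by the group's total. Intervals are exact Poisson, Clopper-Pearson or conditional binomial for ratios (scipy 1.17.1), and the call rule read 0 as up to 3 counts. With 1 library per age no test was made. The genes named are the members, the 3 most alike by correlation, and family genes of at least 10 CPM in some group, with leading genes of the clusters and known markers. The members and lists were chosen with earlier results of these data known. Alternatives covered doublets, stricter cell limits, per-cell means, TMM factors (edgeR 4.0.16), other clusterings, each library left out and a lower count minimum. The ratio step was tested on simulated data. Not every gene of the channel partner list is reported here.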

Additional observations from a re-analysis of the deposited data

Results flagged for a closer look

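Kcnk2 differed in its course between the lineages. At 5 wk over 2 wk its ratio was 5.34 in granulosa-like cells (4.79 to 5.95) and 0.958 in mesenchymal cells (0.924 to 0.993), so the counting intervals lie on opposite sides of 1. The mesenchymal ratio was 1.09 with stricter cell limits and 1.17 with per-cell means, so its side of 1 depends on the processing. Each age is 1 library, and the difference between the lineages was not tested.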

How the results depend on the processing

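No paired analysis was possible because each age has 1 library and no replicate numbers. Of the counts of members called, 47 under an alternative stayed within 1.5 times the main count and 7 did not. Between remodeling and antral cells the count of 2 became 1 when clustered without the members and 0 without integration (2 to 3 with a library left out). Between antral and secondary cells the count of 4 became 2 with stricter cell limits, 2 at resolution 0.6, 2 without the members and 1 without integration (4 with any library left out). Between 2 and 5 wk in antral cells it became 2 of 4 without integration. The ratios of Kcnk3 and Kcne2 there reversed, to 0.336 and 0.227 without integration. That clustering separated the libraries, and the cause was not tested. The share of genes called lower between granulosa 5 and 6 became 2.00% with a minimum of 50 UMIs. The alternatives that kept marker names over profiles, and that left granulosa 2 out of antral cells, were chosen after seeing the data. Kcnk2 in mesenchymal cells, 5 wk over 2 wk, lay on the other side of 1 with stricter cell limits (1.09) and with per-cell means (1.17). Kcne2 is limited most by depth, with 654 UMIs in all.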
